A study of Homo sapiens with 19 samples.

Results

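The related miRNAs of the miR-10, miR-99/100 and miR-125 branches were followed in Caco-2, a wild-type line of human colorectal epithelial cells in long use, and in fractions of their culture medium. The 7 members, hsa-miR-10a-5p, hsa-miR-10b-5p, hsa-miR-99a-5p, hsa-miR-99b-5p, hsa-miR-100-5p, hsa-miR-125a-5p and hsa-miR-125b-5p, were taken by name from 1043 mature miRNAs counted in the series. All 7 were counted in at least 1 library of each group and passed the filter on low counts. The groups were the last supernatant (S100, 3 libraries), the pellet of the last spin (P100, 4 libraries), the pellet of the spin before it (P40, 4 libraries), unfractionated extracellular RNA (total exRNA, 4 libraries) and the cells themselves (cell lysate, 3 libraries). All came from cultures grown with 20% fetal bovine serum to 80% confluence and then held for 24 h without serum and antibiotics. Medium was cleared of debris and spun at 40000 x g, which gave P40, and its supernatant was spun at 100000 x g, which gave P100 and S100. RNA of S100 and total exRNA was precipitated before Trizol, while RNA of P100, P40 and cell lysate went directly into Trizol. A comparison across these preparations therefore differs in fraction and in preparation, and the effects cannot be told apart. S100 against total exRNA, P100 against P40 and each pellet against cell lysate share a preparation.

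Depth ranged from 198878 to 225290 counts in S100, 10017 to 27027 in P100, 10490 to 26096 in P40, 34427 to 61622 in total exRNA and 37453 to 157051 in cell lysate. S100 replicate 1 held 48 counts, none of them of a member, and was left out. Gut epithelial miRNAs (the miR-192/194/215, miR-200 and miR-31 genes) were counted in every group, 9 of 9, at a summed share of 2.64% to 3.02% in S100 libraries and 4.44% to 5.65% in cell lysate libraries. Of 6 mesenchymal miRNAs, 6 were counted in S100, 4 in P100, 5 in P40, 4 in total exRNA and 3 in cell lysate, where miR-199a-5p, miR-199a-3p and miR-127-3p were at 0. Their summed share was 0.0284% to 0.0458% in S100, 0.0554% to 0.206% in P100, 0.0498% to 0.0902% in P40, 0.060% to 0.116% in total exRNA and 0.016% to 0.0652% in cell lysate. Of 8 blood or serum miRNAs, 6 were counted in S100 and 5 in cell lysate, where miR-451a (a red cell marker), miR-144-3p and miR-223-3p were at 0. They summed to 0.283% to 0.394% in S100, 1.01% to 1.81% in P100, 1.47% to 2.03% in P40, 1.87% to 2.26% in total exRNA and 0.553% to 1.27% in cell lysate. As 5 of them were counted in the cells themselves, their sum need not measure blood or serum RNA alone. Their part in the results below was not tested, nor was that of bovine RNA left from the serum. P40 libraries did not form a tight group: by mean rank correlation over the tested miRNAs, replicates 1 and 2 lay closer to total exRNA, and replicates 3 and 4 closer to P100, than to the rest of P40.

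miRNAs guide Argonaute proteins to messenger RNAs, mainly by pairing through the seed, bases 2 to 8 of the mature strand. The miR-10 and miR-99/100 branches are among the oldest animal miRNAs, and miR-125 is the vertebrate counterpart of lin-4, the founding miRNA of Caenorhabditis elegans. miR-10a and miR-10b lie within the HOX gene clusters and repress HOX messages. miR-99 and miR-100 are known to repress MTOR and the IGF1 receptor. miR-125a and miR-125b are known for roles in blood cell differentiation and cell survival. In colorectal cancer lines, miR-100 and miR-125b from the MIR100HG host gene are known for a link to resistance against the antibody cetuximab.

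Mature sequences from RefSeq (GRCh38.p14), matched for 6 of the 7 members, are printed because members differ from each other by few bases. They are written from the 5′ end with the seed in capitals.
miR-100-5p: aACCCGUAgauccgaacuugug
miR-99a-5p: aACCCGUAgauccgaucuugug
miR-99b-5p: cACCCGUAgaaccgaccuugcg
miR-125a-5p: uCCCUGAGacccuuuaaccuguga
miR-125b-5p: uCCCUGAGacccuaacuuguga
miR-10a-5p: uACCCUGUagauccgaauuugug
miR-99a-5p, miR-99b-5p and miR-100-5p share the seed ACCCGUA, and miR-125a-5p and miR-125b-5p share CCCUGAG. miR-100-5p differs from miR-99a-5p by U16A alone (the miR-99a-5p base first, positions counted from 1 at the 5′ end). From miR-99b-5p it differs by C1A, A11U, C16A and C21U, the miR-99b-5p base first. miR-125a-5p and miR-125b-5p are identical over their first 13 bases. miR-10a-5p and miR-100-5p share a run of 11 bases but not the seed. How the authors assigned reads that fit several miRNAs is not given in the sources used here, so the split between miR-99a-5p and miR-100-5p rests on 1 base and is uncertain in that respect.

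The 6 miR-99/100 and miR-125 hairpins, written here with GRCh38 positions and GENCODE 29 genes, sit in 3 clusters with a let-7 gene between them. On chromosome 11, MIR100 (chr11:122152229-122152308) and MIR125B1 (chr11:122099757-122099844) flank MIRLET7A2 within introns of the noncoding host gene MIR100HG, over 52.6 kb on the minus strand. On chromosome 21, MIR99A (chr21:16539089-16539169) and MIR125B2 (chr21:16590237-16590325) flank MIRLET7C within introns of MIR99AHG, over 51.2 kb. On chromosome 19, MIR99B (chr19:51692612-51692681) and MIR125A (chr19:51693254-51693339) flank MIRLET7E within 728 bases of an intron of SPACA6, opposite an exon of the antisense gene SPACA6P-AS. MIR10A (chr17:48579838-48579947) overlaps an intron of HOXB3 and an exon of HOXB4 transcripts, and MIR10B (chr2:176150303-176150412) lies in an intron of HOXD3. miR-125b-5p is made from 2 hairpins, so its counts cannot be split between chromosomes 11 and 21.

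The family was a small part of every library but its make-up differed in S100. Summed over members it took 0.587% ± 0.105 of counts in S100, 0.927% ± 0.308 in P100, 0.827% ± 0.290 in P40, 0.536% ± 0.162 in total exRNA and 0.724% ± 0.124 in cell lysate (SD, n = 3, 4, 4, 4 and 3 libraries). miR-100-5p was the largest member in each S100 library, at 38.5% ± 3.52 of the family counts, against 3.78% ± 2.48 in P100, 4.87% ± 0.903 in P40, 1.18% ± 0.625 in total exRNA and 0.870% ± 0.828 in cell lysate. miR-125a-5p was the largest member in the other groups on average, at 41.4% in P100, 42.5% in P40, 49.2% in total exRNA and 50.3% in cell lysate, against 29.4% in S100. Within these 5 groups the smallest mean share was that of miR-10b-5p in S100 (2.62%), miR-99a-5p in P100 (2.49%), miR-125b-5p in P40 (3.11%), miR-100-5p in total exRNA and miR-125b-5p in cell lysate (0.785%).

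**Figure D1:**
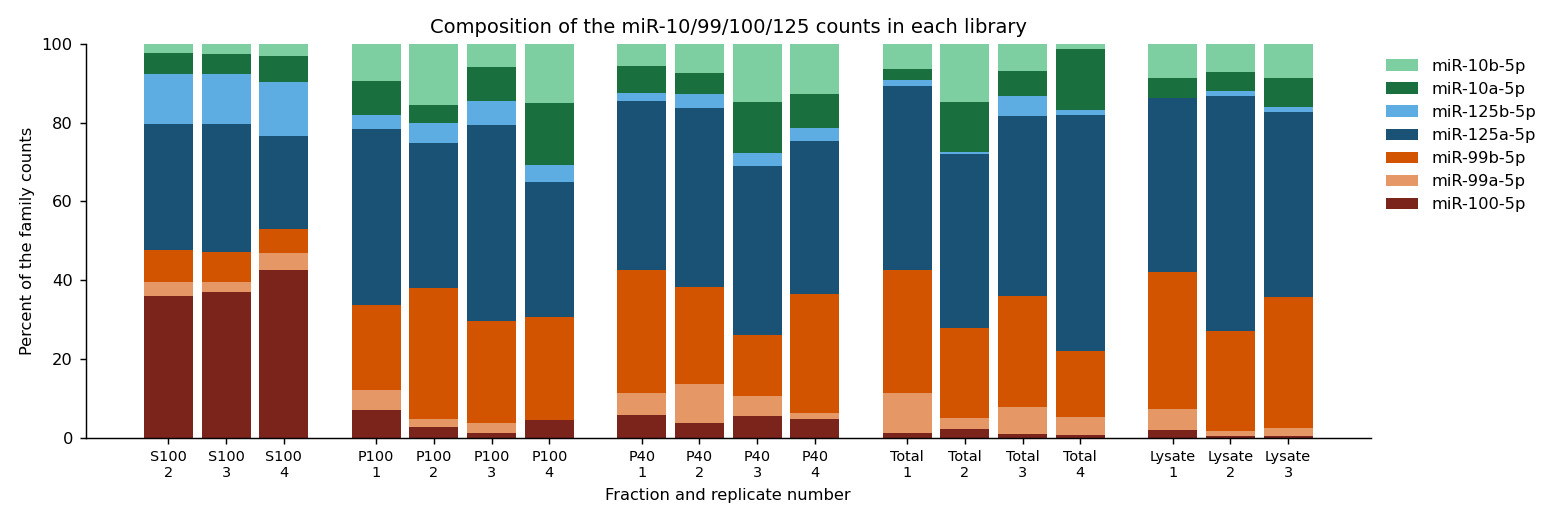
Share of the family counts taken by each member (stacked bars, percent of the summed counts of the 7 members) in each of 18 libraries, by fraction and replicate number. miR-100-5p takes 36.0% to 42.5% of the family counts in the S100 libraries and at most 6.90% in any library of the other groups.

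Levels are given as CPM (counts per 1000000) on library sizes adjusted with TMM factors, a trimmed mean of log ratios between libraries. They are shares of a library and not amounts in a fraction, and fewer vesicles or cells and less RNA in each cannot be told apart. Mature miRNAs of 22 to 24 bases give at most 1 read each, so members were set side by side without scaling by length. Calls use edgeR's quasi-likelihood test over 227 miRNAs, with Benjamini-Hochberg adjustment over all of them and a threshold of 0.05. Each fold change is the log2 value of the group named first over the group named after it, with its SE. Whether replicates were separate cultures is not said in the labels, and the p-values then reflect the spread of these libraries alone, which may be technical. Comparisons that use the same S100 or cell lysate libraries are not independent of each other.

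miR-100-5p was the member that set S100 apart. It had 490, 498 and 443 counts in the S100 libraries. In P100 it had 8, 8, 2 and 5 counts, in P40 5, 4, 13 and 6, in total exRNA 2, 10, 2 and 1, and in cell lysate 4, 5 and 2. Every S100 library lay far above every other library, also in CPM: S100 had 2516, 2072 and 2322 CPM. P100 libraries had 474, 344, 87.6 and 507 CPM, and P40 libraries had 313, 215, 449 and 474 CPM. Total exRNA libraries had 52.2, 148, 36.9 and 27.8 CPM, and cell lysate libraries had 140, 37.0 and 32.2 CPM. The pellets lay between S100 and the other groups, with P100 replicate 3 inside the range of total exRNA and cell lysate. The order of group means was S100 (2304 ± 222 CPM), P40 (363 ± 122), P100 (353 ± 191), cell lysate (69.6 ± 60.7) and total exRNA (66.2 ± 55.4). P40 and P100 libraries overlapped, as did cell lysate and total exRNA libraries. Total exRNA, the medium before it was split, was thus below P40 in every library and held no library near S100. Its mean lay below those of S100, P40 and P100, whereas a share in a whole should lie between the shares in its parts. The reason was not tested, and a rise over total exRNA cannot be read as enrichment from that medium alone. Values of 1 to 13 counts outside S100 leave those levels imprecise.

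miR-100-5p rose in S100 in all 4 comparisons. Over cell lysate its log2 fold change was 5.31 ± 0.71 (edgeR quasi-likelihood, Benjamini-Hochberg adjusted p = 1.48e-06), which ranked 10 among the rises of 227 miRNAs. Over total exRNA, which shares the preparation, it was 4.97 ± 0.61 (edgeR, Benjamini-Hochberg adjusted p = 4.40e-07), which ranked 2. Over P40 it was 2.66 ± 0.56 (edgeR, Benjamini-Hochberg adjusted p = 0.000393), which ranked 23. Over P100 it was 2.77 ± 0.57 (edgeR, Benjamini-Hochberg adjusted p = 0.000283), which ranked 31. Without cell lysate replicate 1, the lysate library with the highest miR-100-5p CPM, the first value was 6.33. Without total exRNA replicate 2 the second was 5.87. The P40 value was 2.74 over P40 replicates 3 and 4 and 2.92 over replicates 1 and 2, a split made after the data were seen.

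Both pellets also held more miR-100-5p than the cells, with the same preparation. The log2 fold change was 2.65 ± 0.71 in P40 over cell lysate (edgeR, Benjamini-Hochberg adjusted p = 0.00701) and 2.54 ± 0.72 in P100 over cell lysate (edgeR, Benjamini-Hochberg adjusted p = 0.00787). These calls rest on few lysate counts. Without cell lysate replicate 2 they were 2.20 (edgeR, Benjamini-Hochberg adjusted p = 0.0545) and 2.07 (adjusted p = 0.0562), and without cell lysate replicate 1 they were 3.34 and 3.32. At equal depth they were 2.40 (edgeR, Benjamini-Hochberg adjusted p = 0.106) and 2.53 (adjusted p = 0.0655), and in fits of the 2 groups alone miR-100-5p did not pass the filter on low counts and was not tested. The mesenchymal and the blood or serum miRNAs given above also reached higher summed shares in the pellets than in cell lysate, without overlap of libraries for the blood or serum list in P40 and with overlap otherwise, and their part in the rise of miR-100-5p, and of miR-125b-5p in P100 below, was not tested.

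miR-99b-5p, which carries the same seed, took the other direction in S100. It had 565, 420 and 330 CPM in S100, against 1482, 4132, 2102 and 3044 in P100 and 1755, 1451, 1279 and 3005 in P40. Total exRNA libraries had 1513, 1613, 1143 and 694 CPM, and cell lysate libraries had 2652, 2265 and 2916 CPM. Each S100 library was below each library of every other group. miR-99b-5p fell in S100, with a log2 fold change of -2.57 ± 0.44 over cell lysate (edgeR, Benjamini-Hochberg adjusted p = 2.86e-05), -2.07 ± 0.42 over P40 (adjusted p = 0.000311), -2.61 ± 0.43 over P100 (adjusted p = 2.54e-05) and -1.50 ± 0.41 over total exRNA (adjusted p = 0.00289). Without S100 replicate 4, the log2 fold change was -1.98 over cell lysate, and over total exRNA the call was lost (-1.01, edgeR, Benjamini-Hochberg adjusted p = 0.0782). Without P40 replicate 4 the value against P40 was -1.43. Total exRNA was also below cell lysate, with a log2 fold change of -1.07 ± 0.39 (edgeR, Benjamini-Hochberg adjusted p = 0.0391), with no overlap of libraries. That call was lost without any of the cell lysate libraries (adjusted p 0.0905 to 0.165), without total exRNA replicate 3 or 4 (adjusted p = 0.084 and 0.157) and under median-ratio or library-size scaling (0.123 and 0.185). It was lost too by DESeq2, without the filter on low counts, at equal depth, in the fit of the 2 groups alone, and without any S100 library or P40 replicate 3 or 4, which bear on it only through the shared scaling, filter and spread. Over total exRNA the call in S100 was also lost without the filter (-1.06, edgeR, Benjamini-Hochberg adjusted p = 0.109) and at equal depth (-1.02, adjusted p = 0.136).

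miR-99a-5p, which differs from miR-100-5p by 1 base, passed the test in none of the 8 comparisons. It had 257, 146 and 241.2 CPM in S100, with 356, 258, 219 and 0 CPM in P100. P40 libraries had 313, 591, 415 and 158 CPM, total exRNA libraries 496, 207, 276 and 194 CPM, and cell lysate libraries 419, 118 and 177 CPM. All 5 groups overlapped. Behind these levels stood 35 to 50 counts in S100 and 0 to 19 in the other libraries, and the missing calls do not show that the groups were alike.

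**Figure D2:**
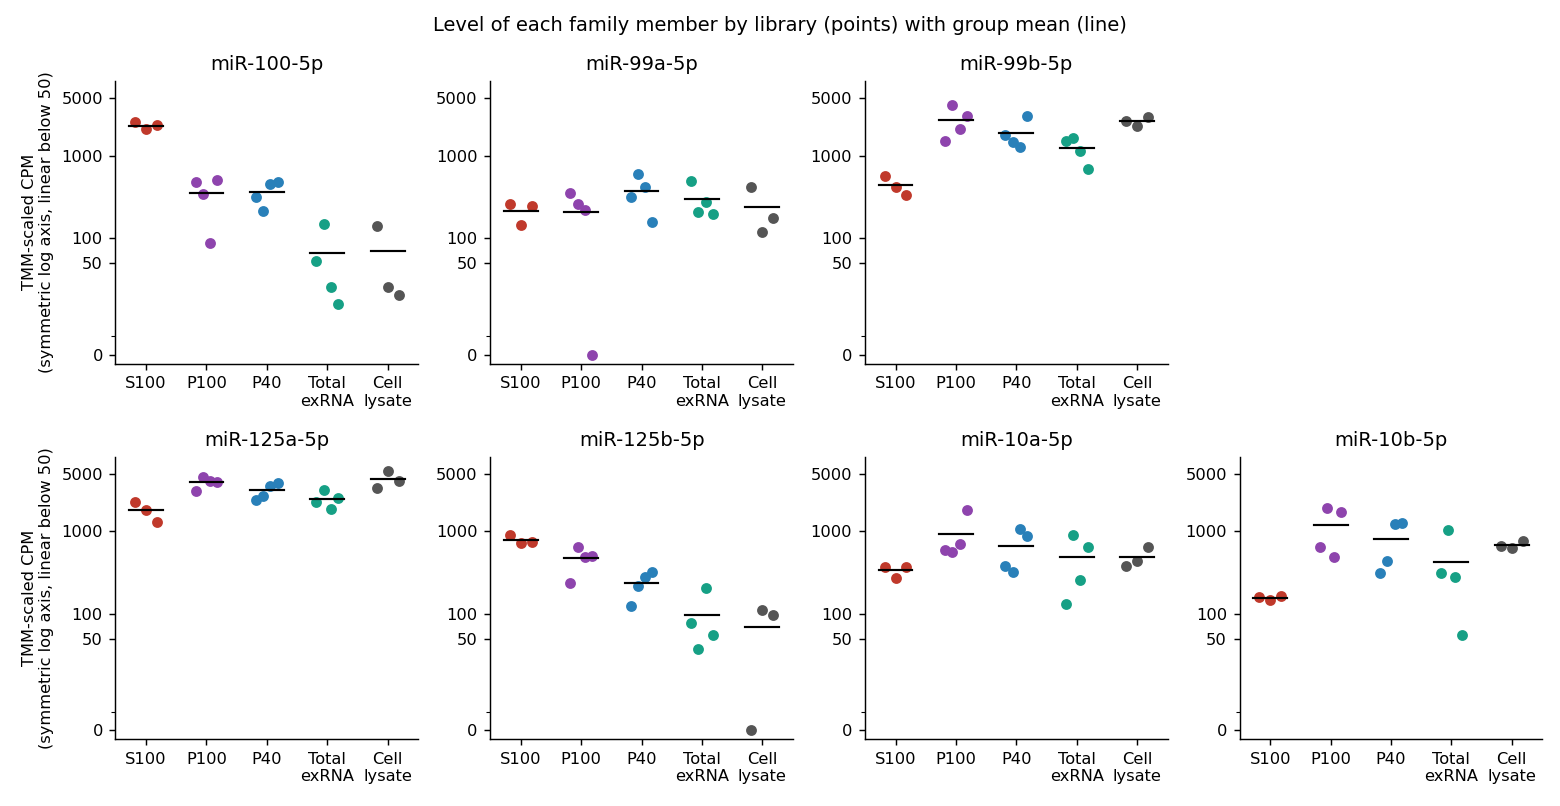
TMM-scaled CPM of each member (symmetric log axis, linear below 50 CPM) in the 18 libraries, by fraction, with points for libraries and a line for the group mean. miR-100-5p is at 2072 to 2516 CPM in S100 and at most 507 CPM elsewhere, while miR-99b-5p is at 330 to 565 CPM in S100 and at least 694 CPM elsewhere.

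Within the ACCCGUA seed, the largest member was thus miR-100-5p in S100 and miR-99b-5p on average in every other group. miR-100-5p made up 75.4% (490 of 650 counts), 78.6% (498 of 634) and 80.3% (443 of 552) of the summed miR-99a-5p, miR-99b-5p and miR-100-5p counts in S100, with exact 95% binomial intervals that together ran between 71.9% and 83.5%. P100 libraries had 20.5%, 7.27%, 3.64% and 14.3%, and P40 libraries had 13.2%, 9.52%, 20.97% and 13.0%. Total exRNA libraries had 2.53%, 7.52%, 2.53% and 3.03%, and cell lysate libraries had 4.35%, 1.53% and 1.03%. The highest upper bound outside S100 was 36.5%, in P100 replicate 1, where 8 of 39 counts were miR-100-5p. The intervals cover counting error only. No molecular identifiers were used, so reads copied from the same molecule cannot be told apart, and the intervals may be too narrow.

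As a ratio within a library, which does not depend on scaling, log2 of miR-100-5p over the summed miR-99 members (0.5 added to each) averaged 1.83 ± 0.21 in S100 (SD, n = 3), -3.09 ± 1.13 in P100, -2.55 ± 0.51 in P40, -4.48 ± 0.66 in total exRNA (n = 4 each) and -5.48 ± 1.04 in cell lysate (n = 3). The 4 differences with S100 showed no overlap of libraries. They were 7.31 ± 0.61 (SE) over cell lysate, 6.31 ± 0.35 over total exRNA, 4.39 ± 0.28 over P40 and 4.93 ± 0.58 over P100. The exact two-sided permutation test gave p = 0.1 against cell lysate and p = 0.0571 against the others, in each case the smallest p the design allows, and 0.152 and 0.114 after Benjamini-Hochberg adjustment over 8 comparisons. No comparison with 3 libraries in a group could pass 0.05 by this test. A limma model of the log2 ratios of all tested miRNAs passed all 4 of them (Benjamini-Hochberg adjusted p between 3.14e-08 and 1.01e-05).

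Among the remaining ratios, P40 was above cell lysate by 2.93 ± 0.65 with no overlap (exact permutation p = 0.0571, the smallest possible, adjusted 0.114). P100 was 2.39 ± 0.83 above cell lysate with overlap (exact permutation p = 0.114, adjusted 0.152). Total exRNA and cell lysate differed by 1.00 ± 0.69 (exact permutation p = 0.229) and P100 and P40 by -0.54 ± 0.62 (exact permutation p = 0.457, smallest possible 0.0286). With limma the pellet differences from cell lysate passed (adjusted p = 0.00185 for P40 and 0.00721 for P100) and the last pair did not (0.234 and 0.595). Summed counts of miR-99a-5p and miR-100-5p do not depend on how reads were split between them. Over miR-99b-5p, this sum gave S100 differences of 5.81 against cell lysate, 4.30 against total exRNA, 3.79 against P40 and 4.72 against P100. The sum cannot tell which of its members rose, so misassigned reads between them were not tested.

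**Figure D3:**
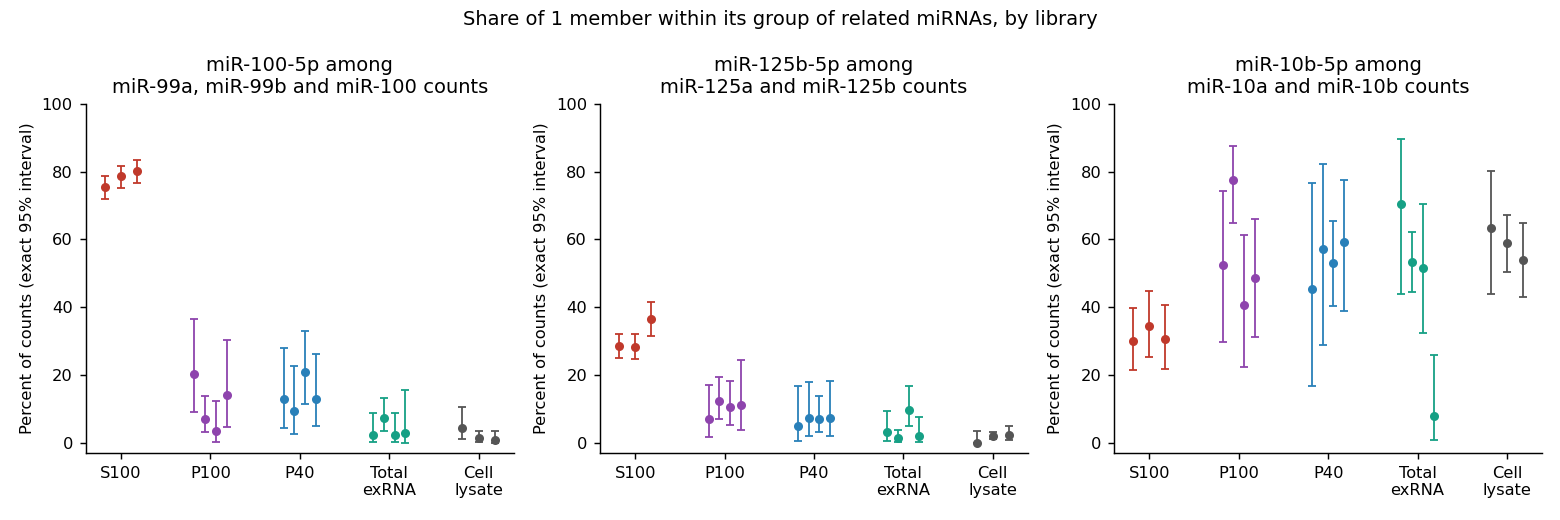
Percent of counts taken by miR-100-5p among miR-99a-5p, miR-99b-5p and miR-100-5p (left), by miR-125b-5p among the miR-125 members (middle) and by miR-10b-5p among the miR-10 members (right), for each library with its exact 95% binomial interval, by fraction. S100 libraries are at 75.4% to 80.3% on the left and 28.3% to 36.5% in the middle, above all other libraries, and at 30.1% to 34.7% on the right.

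Within the CCCUGAG seed, S100 had more miR-125b-5p than cell lysate, P40 and total exRNA and less miR-125a-5p than cell lysate, P40 and P100. miR-125b-5p had 893, 720 and 744 CPM in S100 from 174, 173 and 142 counts. It had 237, 646, 482 and 507 CPM in P100 and 125.4, 215, 277 and 316 CPM in P40. Total exRNA libraries had 78.3, 44.4, 203 and 55.5 CPM, and cell lysate libraries had 0, 111 and 96.7 CPM. Each S100 library was above each other library, and the means fell in the order S100 (786 ± 93.9), P100 (468 ± 170), P40 (233 ± 83.2), total exRNA (95.2 ± 73.1) and cell lysate (69.2 ± 60.4). Neighbours from P100 downward overlapped. Here too the mean of total exRNA lay below those of S100, P100 and P40, and the reason was not tested.

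miR-125b-5p rose in S100 by a log2 fold change of 3.23 ± 0.64 over cell lysate (edgeR, Benjamini-Hochberg adjusted p = 0.000138), 3.00 ± 0.58 over total exRNA (adjusted p = 0.000116) and 1.74 ± 0.58 over P40 (adjusted p = 0.0143). Over P100 the value was 0.74 ± 0.55 and did not pass (edgeR, Benjamini-Hochberg adjusted p = 0.251). P100 was itself above cell lysate, by 2.50 ± 0.65 with no overlap (edgeR, Benjamini-Hochberg adjusted p = 0.00432). P40 over cell lysate, at 1.49 ± 0.67, did not pass (edgeR, Benjamini-Hochberg adjusted p = 0.109), though DESeq2 gave an adjusted p of 0.0391. Cell lysate replicate 1 held no count of miR-125b-5p, which allows up to 3.73% of its 97 miR-125 counts (exact 95% binomial bound). Without cell lysate replicate 2 the S100 value over cell lysate was 3.90, and without total exRNA replicate 3 the value over total exRNA was 3.72.

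miR-125a-5p was the most abundant member of the family outside S100. It had 2239, 1823 and 1295 CPM in S100 and 3082, 4563, 4028 and 3957 CPM in P100. P40 libraries had 2382, 2687, 3527 and 3874 CPM, total exRNA libraries 2269, 3137, 1862 and 2499 CPM, and cell lysate libraries 3385, 5306 and 4108 CPM. S100 lay below P100, P40 and cell lysate in every library and overlapped total exRNA. miR-125a-5p fell in S100, with a log2 fold change of -1.26 ± 0.33 over cell lysate (edgeR, Benjamini-Hochberg adjusted p = 0.00177), -0.80 ± 0.31 over P40 (adjusted p = 0.0318) and -1.13 ± 0.31 over P100 (adjusted p = 0.00362). All 3 calls were lost without S100 replicate 4, the library with the least miR-125a-5p, with values of -0.64, -0.23 and -0.66 (edgeR, Benjamini-Hochberg adjusted p = 0.148, 0.611 and 0.124). The call against cell lysate was also lost without cell lysate replicate 2 (log2 value -0.79), and that against P40 without P40 replicate 3 or 4 or any of the S100 libraries (-0.23 to -0.62). The call against P40 ended under most alternatives: median-ratio scaling (-0.50, edgeR, Benjamini-Hochberg adjusted p = 0.181), DESeq2 (-0.50, adjusted p = 0.114), the fit of the 2 groups alone (-0.83, adjusted p = 0.0571), equal depth (-0.49, adjusted p = 0.302), either pair of P40 replicates (-0.60 and -0.68), and without any cell lysate library or total exRNA replicate 4 (-0.37 to -0.48). Without the filter on low counts none of the 3 calls held, with -0.57 against cell lysate, -0.14 against P40 and -0.47 against P100 (edgeR, Benjamini-Hochberg adjusted p = 0.443, 0.931 and 0.655). At equal depth the value against cell lysate was -0.82 (adjusted p = 0.0937).

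Total exRNA was below cell lysate in miR-125a-5p, with a log2 fold change of -0.81 ± 0.30 and no overlap (edgeR, Benjamini-Hochberg adjusted p = 0.0401). With the batch number as a block the value was -0.80 and the call was lost (edgeR, Benjamini-Hochberg adjusted p = 0.0524), as it was without any of the cell lysate libraries (adjusted p 0.0517 to 0.252), without total exRNA replicate 1, 3 or 4 (adjusted p 0.0785 to 0.116) and under median-ratio or library-size scaling. DESeq2, no filter, equal depth, the fit of the 2 groups alone, and leaving out any S100 library, P40 replicate 3 or 4 or P100 replicate 3 also ended it. Among the miR-125 counts, miR-125b-5p made up 28.5%, 28.3% and 36.5% in S100, 7.14% to 12.4% in P100, 5.00% to 7.55% in P40, 1.40% to 9.82% in total exRNA and 0% to 2.30% in cell lysate. The S100 intervals, from 24.8% upward, lay above those of all other libraries, of which P100 replicate 4 came nearest with an upper bound of 24.6% from 44 counts.

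miR-10b-5p was the member with the tightest values in S100, at 159, 146 and 163 CPM. P100 had 652, 1937, 482 and 1725 CPM and P40 had 313, 430, 1210 and 1265 CPM. Total exRNA libraries had 313, 1036, 276 and 55.5 CPM, and cell lysate libraries had 663, 629 and 757 CPM. S100 lay below P100, P40 and cell lysate throughout, while 1 total exRNA library, replicate 4 with 2 counts, lay below S100. The log2 fold change in S100 was -2.12 ± 0.71 over cell lysate (edgeR, Benjamini-Hochberg adjusted p = 0.0117), -2.36 ± 0.70 over P40 (adjusted p = 0.00675) and -2.91 ± 0.71 over P100 (adjusted p = 0.00131). Against total exRNA the value was -1.47 ± 0.67 (edgeR, Benjamini-Hochberg adjusted p = 0.0595). It was -0.44 without total exRNA replicate 2 and passed without replicate 4 (-1.46, adjusted p = 0.0482). The call against cell lysate was lost without any of the S100 libraries or cell lysate replicate 3 (-1.67 to -1.74, adjusted p 0.0636 to 0.0775), and that against P40 without P40 replicate 3 (-1.61, adjusted p = 0.0759) or with P40 replicates 1 and 2 alone (-1.45, adjusted p = 0.140). At equal depth all 3 calls were lost (-1.47, -1.43 and -2.03, edgeR, Benjamini-Hochberg adjusted p = 0.211, 0.206 and 0.0567), and without the filter that against cell lysate was (-1.43, adjusted p = 0.0685). With library sizes in place of TMM the value against total exRNA passed (-1.61, edgeR, Benjamini-Hochberg adjusted p = 0.0498). Total exRNA over cell lysate, at -0.65, did not pass (edgeR, Benjamini-Hochberg adjusted p = 0.457), but without total exRNA replicate 2 it was -1.69 and did (adjusted p = 0.0416).

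miR-10a-5p passed the test in none of the 8 comparisons. It had 370, 275 and 367 CPM in S100, 593, 560, 701 and 1826 CPM in P100 and 376, 323, 1072 and 870 CPM in P40. Total exRNA libraries had 130, 903, 258 and 639 CPM and cell lysate libraries 384, 437 and 644 CPM. S100 and P100 did not overlap, at a log2 fold change of -1.38 ± 0.61 (edgeR, Benjamini-Hochberg adjusted p = 0.0531), and with the batch number as a block the value was -1.57 and passed (adjusted p = 0.0279). Without P100 replicate 1 or 2 it also passed (-1.54 and -1.58, edgeR, Benjamini-Hochberg adjusted p = 0.0493 and 0.0408), as it did in the fit of the 2 groups alone (-1.18, adjusted p = 0.0113) and without P40 replicate 2 or total exRNA replicate 1 or 2 (adjusted p 0.0386 to 0.0489). It did not pass without P100 replicate 3 or 4 (-1.48 and -0.90, edgeR, Benjamini-Hochberg adjusted p = 0.0612 and 0.218). Nor did it pass without any of the S100 libraries (-1.05 to -1.20, adjusted p 0.157 to 0.207). miR-10b-5p made up 30.1%, 34.7% and 30.7% of the miR-10 counts in S100, against 40.7% to 77.6% in P100, 45.5% to 59.3% in P40, 8.00% to 70.6% in total exRNA and 54.0% to 63.3% in cell lysate. Libraries outside S100 with few miR-10 counts, from 11 in P40 replicate 1, had intervals that reached into the S100 range.

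Counted by comparison, S100 over cell lysate had 2 members called higher and 3 lower of 7, against 32.2% and 30.0% of the 227 tested miRNAs (62.1% in either direction). Its libraries did not overlap for 6 members, against 66.5% of all tested miRNAs. S100 over P40 had 2 higher and 3 lower (25.1% and 27.8% of all tested miRNAs, 52.9% in either direction), with 5 members not overlapping (52.9%). S100 over P100 had 1 higher and 3 lower (28.6% and 31.3%, 59.9% in either direction), with 6 not overlapping (66.5%). S100 over total exRNA had 2 higher and 1 lower (29.5% and 33.9%, 63.4% in either direction), with 3 not overlapping (63.9%). In these 4 comparisons the members' counts say nothing about the family as a whole, since most tested miRNAs were called in S100. P100 over cell lysate had 2 higher and none lower (16.7% and 20.7%, 37.4% in either direction), with 1 not overlapping (41.9%). P40 over cell lysate had 1 higher and none lower (13.7% and 13.2%, 26.9% in either direction), with 2 not overlapping (26.0%). Total exRNA over cell lysate had none higher and 2 lower (18.9% and 16.3%, 35.2% in either direction), with 2 not overlapping (42.3%). P100 over P40 had 0 members called by edgeR, 0 at an unadjusted p below 0.05, 0 by DESeq2 and 0 not overlapping. Of all tested miRNAs 2.20% were called higher there, 2.64% lower and 4.85% in either direction, and 11.0% did not overlap. With library sizes alone in place of TMM scaling, the calls over all tested miRNAs split into 47 higher and 19 lower both for P40 and for total exRNA over cell lysate, against 31 and 30 for P40 and 43 and 37 for total exRNA with TMM. Median-ratio scaling gave 45 and 23 for total exRNA over cell lysate. For P100 over P40, library sizes gave 5 higher and 16 lower and median-ratio scaling 5 and 4, against 5 and 6 with TMM.

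**Figure D4:**
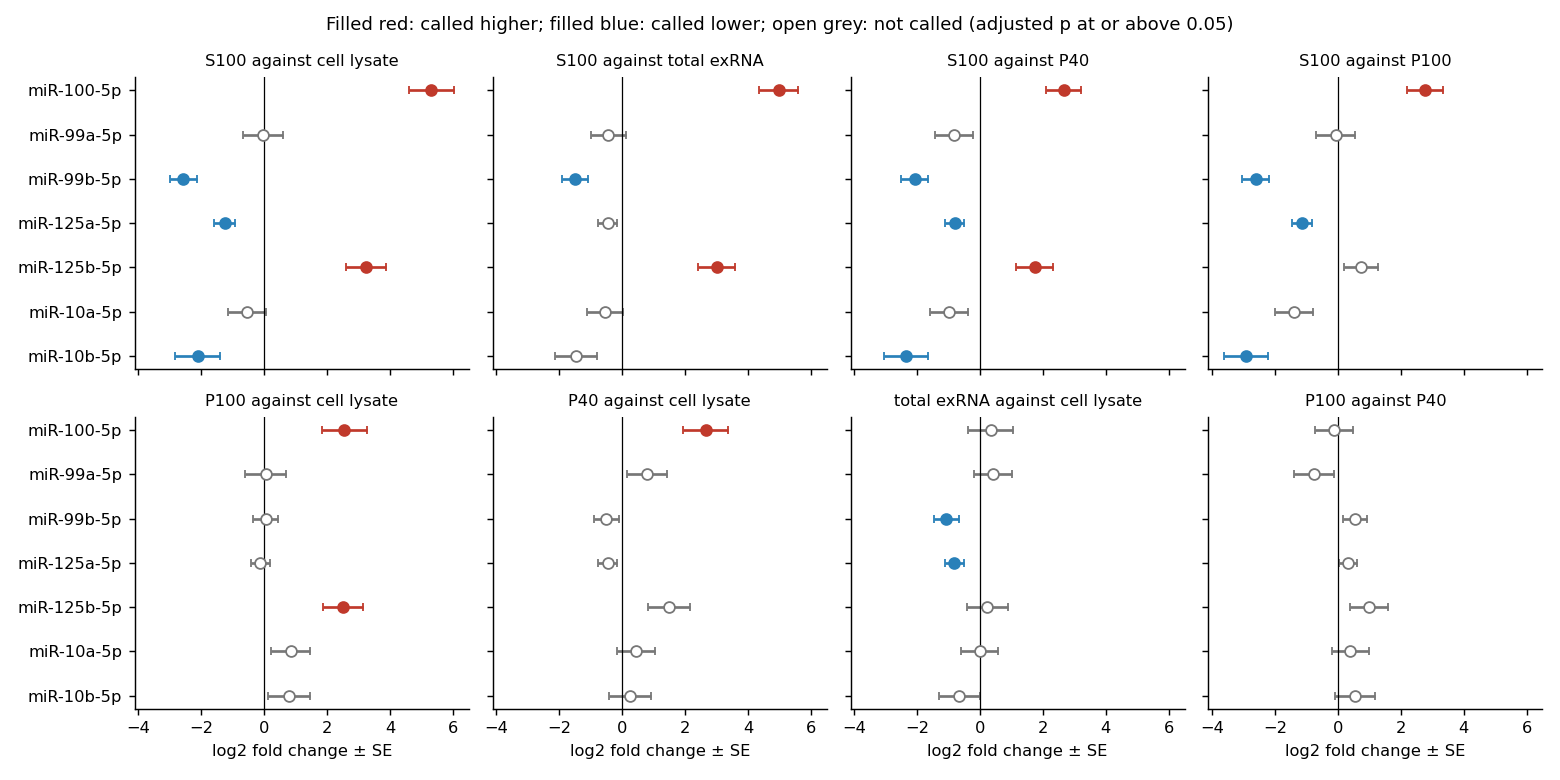
log2 fold change of each member (points, with SE bars) in the 8 comparisons, the group named first over the group named after it. Filled points passed at a Benjamini-Hochberg adjusted p below 0.05 in edgeR, and miR-100-5p lies at 2.66 to 5.31 in the 4 comparisons of S100 while miR-99b-5p lies at -1.50 to -2.61.

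The median log2 fold change of the 7 members was -0.54 for S100 over cell lysate, -0.45 over total exRNA, -0.82 over P40 and -1.13 over P100. Over all tested miRNAs these medians were -0.04, -0.34, -0.30 and -0.01. For P100 and P40 over cell lysate the members' medians were 0.79 and 0.44, against -0.10 and 0.06 over all tested miRNAs.

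let-7 miRNAs are made from the same clusters and are known for repressing growth genes such as RAS and HMGA2. In S100, let-7a-5p and let-7e-5p were lower than in every other group, while let-7c-5p was higher than in P40. Of 6 let-7 strands in these clusters 3 were tested, let-7a-5p, let-7c-5p and let-7e-5p, and the 3p strands of let-7a-2, let-7c and let-7e had no count. let-7a-5p had 263, 152 and 192 counts in S100, averaging 997 ± 359 CPM, against 11919 ± 5610 CPM in cell lysate (SD, n = 3 each). It fell by 3.58 ± 0.47 on the log2 scale in S100 relative to cell lysate (edgeR, Benjamini-Hochberg adjusted p = 1.15e-06) and was called lower in S100 against each of the other groups. let-7a-5p is also made from hairpins outside chromosome 11, so its counts do not report MIRLET7A2 alone. let-7e-5p, neighbour of miR-99b-5p and miR-125a-5p, averaged 298 ± 109 CPM in S100, against 1493 ± 845 CPM in cell lysate. It fell by 2.34 ± 0.52 on the log2 scale (edgeR, Benjamini-Hochberg adjusted p = 0.000477) and was also called lower in S100 against the other 3 groups.

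let-7c-5p, neighbour of miR-99a-5p on chromosome 21, averaged 530 ± 11.0 CPM in S100, against 450 ± 189 CPM in cell lysate, and did not pass there (edgeR, Benjamini-Hochberg adjusted p = 0.78). It was higher in S100 than in P40, by 1.53 ± 0.58 with no overlap (edgeR, Benjamini-Hochberg adjusted p = 0.0291). Over total exRNA it was at 1.15 ± 0.52, also with no overlap, and did not pass (edgeR, Benjamini-Hochberg adjusted p = 0.0557). All 3 tested products of the chromosome 19 cluster were thus called lower in S100 than in cell lysate, P40 and P100 in the main fit. The calls of miR-125a-5p did not hold without S100 replicate 4 or without the filter, as given above. For let-7e-5p no alternative run is given here. From the chromosome 11 cluster, miR-100-5p was called higher in S100 than in cell lysate. There miR-125b-5p was also called higher and let-7a-5p lower, but both are also made from hairpins outside chromosome 11. Their counts therefore cannot show whether products of the chromosome 11 cluster went in different directions. Of the 3 tested let-7 miRNAs, 2 were called lower and none higher in S100 over cell lysate, P100 and total exRNA, 2 lower and 1 higher over P40, and 1 lower and none higher in P100, P40 or total exRNA over cell lysate. let-7 members are near-identical to each other and carry the same doubt about assigned reads.

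**Figure D5:**
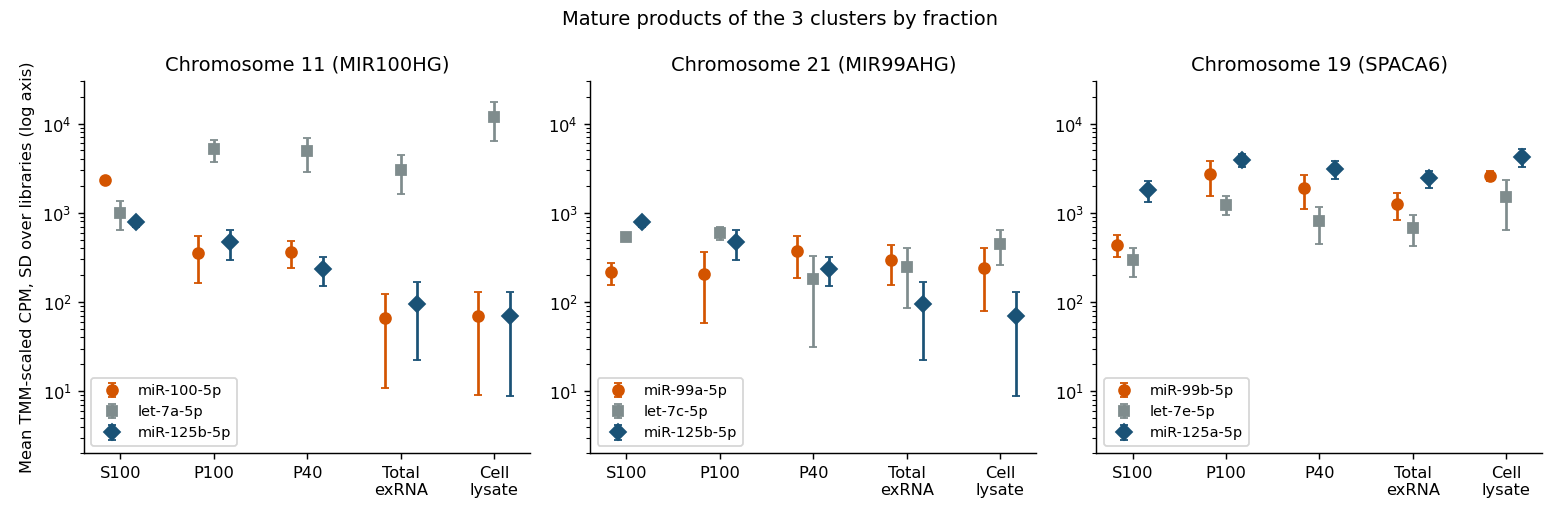
Mean TMM-scaled CPM (log axis, bars are SD over 3 or 4 libraries) of the mature products of the 3 clusters, by fraction. On chromosome 11 miR-100-5p is above let-7a-5p in S100, at 2304 against 997 CPM, and below it in the other fractions, while the 3 chromosome 19 products are lowest in S100.

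The opposite arms of the 8 family hairpins, the 3p strands that are usually degraded, were too rare to be tested (0 of 8 passed the filter). miR-100-3p had no count in any of the 18 libraries, which in S100 allows up to 4.67 CPM (3 counts over 642660) beside 1431 counts of miR-100-5p. miR-99a-3p had 0 counts in S100 and 1 count in P40. miR-125a-3p had 156 counts in S100, 12.2% of both arms of that hairpin, against 2 counts (0.687%) in P100, 6 (2.45%) in P40, 6 (1.21%) in total exRNA and 16 (1.48%) in cell lysate. miR-10b-3p had 50 counts in S100, 34.0% of both arms, against 1 (1.18%), 0, 3 (2.94%) and 9 (5.63%) in P100, P40, total exRNA and cell lysate. miR-10a-3p had 52 counts in S100, 20.0% of both arms, against 0, 4 (6.90%), 11 (9.65%) and 17 (13.4%) in the same groups. These sums over libraries were not tested. miR-99b-3p had 22 counts in S100 (7.43% of both arms), 3 (1.49%) in P100, 11 (7.80%) in P40, 12 (4.51%) in total exRNA and 33 (5.54%) in cell lysate. Of the 3p strands of miR-125b, miR-125b-1-3p (chromosome 11) had 11 counts and miR-125b-2-3p (chromosome 21) had 1 count in S100. Both had 0 in all other groups. In S100, miR-125b-1-3p was at 17.1 CPM of the summed depth. A sum of 3 counts would be 38.3 CPM in P100, 42.8 in P40, 16.3 in total exRNA and 11.5 in cell lysate. With only 18 to 35 miR-125b-5p counts in each of those groups, the counts of 0 do not show a strand particular to S100.

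Over the 18 libraries, log2 CPM of miR-100-5p was most like that of miR-320b (Pearson r = 0.914), miR-320c (0.885) and miR-146a-5p (0.877), all higher in S100. miR-125b-5p was closest to the same 3 miRNAs, at 0.783, 0.792 and 0.790. miR-125a-5p was closest to its cluster neighbour let-7e-5p (0.932), then miR-191-5p (0.855) and miR-99b-5p (0.852). miR-99b-5p was closest to miR-191-5p (0.857), miR-125a-5p (0.852) and miR-10b-5p (0.821). miR-10b-5p was closest to miR-99b-5p, then miR-12136 (0.783) and miR-191-5p (0.755). miR-10a-5p and miR-99a-5p had weaker partners, miR-365a-3p (0.738), let-7f-5p (0.718) and let-7g-5p (0.700) for miR-10a-5p and miR-30e-3p (0.655), miR-149-5p (0.561) and miR-1307-3p (0.554) for miR-99a-5p. Within the family, miR-100-5p and miR-125b-5p had r = 0.705, miR-100-5p and miR-99a-5p -0.11, and miR-100-5p and miR-99b-5p -0.49. These values describe libraries that share groups, depth and scaling, and they carry no test.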

How the data were processed

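Small RNA libraries (RealSeq-AC kit, single-end reads of 50 bases) were deposited as raw counts per mature miRNA, 1 table per library. Per the submitters' processing notes, the authors used cutadapt 1.16, FastQC and Bowtie2 with GRCh38. Order, parameters, filters and the handling of multiple matches are not given in the sources used here. miRNAs absent from a table were taken as 0. The members and lists were chosen with earlier results of these data known. Of 19 libraries, 18 with at least 100 detected miRNAs were used.

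Counts were analysed with edgeR 4.0.16 in R 4.3.3: filterByExpr (minimum count 10, minimum total 15) kept 227 miRNAs holding 98.5% to 99.1% of counts, TMM scaling, and 1 robust quasi-likelihood model of the 5 groups (common biological coefficient of variation 0.419), which was tested on simulated data. Alternatives were other scalings, no filter, DESeq2 1.42.0, a batch block, fits of 2 groups, libraries thinned to 10017 counts, and leaving out libraries. The ratio was tested by exact two-sided permutation (scipy 1.17.1), with limma 3.58.1 as an alternative. The exact 95% intervals are Clopper-Pearson. Named miRNAs are the members, their opposite arms, the clustered let-7 miRNAs and the 3 miRNAs most correlated with each member (log2 CPM, prior count 2). No further human miRNA with a member's seed was counted. No pair of replicates agreed within sampling noise (chi-square per degree of freedom at least 4.66).

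Batch numbers in the labels equal replicate numbers and so pair the libraries by label. Deviations from group means correlated at a mean of -0.030 (-0.568 to 0.311) over 32 pairs of libraries with the same number and at 0.0099 over 97 pairs with different numbers.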

Additional observations from a re-analysis of the deposited data

Results flagged for a closer look

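In groups of 4 libraries, the most extreme library was compared with the rest for the 7 members, the family share and the ratio, 27 groups of values in all, of which chance would mark about 1 in 20. In 2 of them the gap to the nearest library exceeded Dixon's 95% critical value for 4 libraries, as a share of the group's range. miR-10a-5p stood at 1826 CPM in P100 replicate 4, with a gap of 0.889 of the range to the other P100 libraries at 560 to 701 CPM. Without that library miR-10a-5p passed the test in no comparison with P100. The family share of total exRNA replicate 2 was 0.777% of counts (gap 0.859 of the range), above 0.436% to 0.484% in the other total exRNA libraries.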

How the results depend on the processing

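Of 56 pairs of member and comparison, 22 were called, 30 were called under no alternative run (16 of these changed sign under at least 1), and 4 only under some. In S100, miR-100-5p against all 4 other groups, miR-125b-5p against cell lysate, P40 and total exRNA, and miR-99b-5p against cell lysate, P40 and P100 kept direction and call under every alternative that tested them; equal depth tested 5 members (not miR-99a-5p and miR-125b-5p) of 141 miRNAs. The replicate block (batch number) changed the count of members called in total exRNA over cell lysate to 1, against 2, and changed no other count of members by over 1.5 times.

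Members called in total exRNA over cell lysate were 0 under median-ratio (RLE) scaling, library size, no filter, DESeq2, the fit of 2 groups and equal depth, and 0 to 3 when libraries were left out, with miR-10b-5p the third without total exRNA replicate 2. P40 over cell lysate, with 1 called, gave 2 by DESeq2, 0 in the fit of 2 groups and at equal depth, and 0 without cell lysate replicate 2. P100 over cell lysate, with 2, gave 1 in the fit of 2 groups, 0 at equal depth and 1 to 2 with libraries left out. S100 over cell lysate, with 5, gave 3 without a filter, 2 at equal depth and 3 to 5 with libraries left out. S100 over P40, with 5, gave 2 at equal depth, 3 with P40 replicates 1 and 2 alone and 3 to 5 with libraries left out. S100 over total exRNA, with 3, gave 1 at equal depth. Thinning itself removes counts, and in the fits of 2 groups the filter removed miR-100-5p, the call that P40 and P100 over cell lysate lost there. For the other changes the cause was not tested.

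With limma, the log2 ratio of miR-100-5p to miR-99 passed in 6 comparisons, without and with the replicate block: S100 over cell lysate 7.31 and 7.41, over P40 4.39 and 4.54, over P100 4.93 and 5.08, over total exRNA 6.31 and 6.46, P40 over cell lysate 2.93 and 2.87, and P100 over cell lysate 2.39 and 2.34. With miR-99a-5p alone as denominator it reversed for total exRNA over cell lysate (-0.34) and P100 over P40 (0.74), both uncalled. Leaving out the low-count filter moved the median of all miRNAs in S100 over cell lysate by 0.69 (log2), and median-ratio scaling moved it by 0.41, more than any shift under library-size scaling (-0.23 to 0.35). Without that filter the calls over all miRNAs in S100 were 131 higher and 58 lower over cell lysate, 118 and 63 over total exRNA, 101 and 53 over P40 and 100 and 55 over P100.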
